A study of Mus musculus with 24 samples.

Results

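The genes described here are 9 transcription factors that steer CD4+ T cells into helper lineages, Tbx21, Eomes, Gata3, Foxp3, Bcl6, Maf, Rora, Ahr and Prdm1. They were taken by symbol from the 54446 Ensembl gene identifiers of the count table, all 9 were found, and all 9 were among the 15325 genes that passed the filter on low counts. The samples were splenic CD4+ T cells of C57BL6 mice, either wild type (WT, mice 1, 3 and 4) or deficient in the cytosolic DNA sensor AIM2 (Aim2-/-, mice 1, 2 and 4). Each mouse gave cells without stimulation (0 h, the control) and cells cultured for 3, 6 or 24 h on anti-CD3 with anti-CD28, a stand-in for antigen and co-stimulation. This gave 24 mRNA libraries in 8 groups of 3, with totals between 19715161 and 21627018 counts, and the labels name no added cytokine in any group. The labels do not give the age of the mice. The cells were enriched by magnetic depletion of other cells and sequenced in bulk, without sorting of naive, memory or regulatory cells. In such bulk samples fewer cells of a type and less RNA per cell cannot be told apart.

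A naive CD4+ T cell that meets antigen can become a Th1, Th2, Th17, follicular helper (Tfh) or regulatory T (Treg) cell, and each fate is linked to a factor. T-bet, encoded by Tbx21, directs the Th1 programme and its interferon gamma, and its relative Eomes is best known from cytotoxic and memory cells. GATA3 directs the Th2 programme, FOXP3 defines Treg cells, BCL6 defines Tfh cells and BLIMP-1, encoded by Prdm1, opposes BCL6. ROR alpha (Rora) and the ligand-activated receptor AHR serve Th17 cells, while c-MAF is used by Tfh, Th17 and IL-10 producing cells.

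The stretches just before the start site are shown for the factor that rose most on stimulation (Tbx21), an early riser of the Th2 lineage (Gata3), the factor that fell most (Rora), the factor with the largest difference between the genotypes at 0 h (Eomes) and the member with an AP-1 match (Prdm1). AP-1 and NFAT are factors activated downstream of the T cell receptor. Each stretch holds the 120 bases before the RefSeq start site on the strand of the gene (build GRCm38.p6), 5′ to 3′, with matches to the NFAT core GGAAA or the AP-1 motif TGANTCA on either strand in capitals. In Gata3 the stretch overlaps an exon of Gm13256, which is annotated on the other strand and held at most 12 counts. They lie at chr11:97115332-97115451 on the minus strand (Tbx21), chr2:9878601-9878720 on the minus strand (Gata3), chr9:68653666-68653785 on the plus strand (Rora), chr9:118478069-118478188 on the plus strand (Eomes) and chr10:44458749-44458868 on the minus strand (Prdm1).
Tbx21: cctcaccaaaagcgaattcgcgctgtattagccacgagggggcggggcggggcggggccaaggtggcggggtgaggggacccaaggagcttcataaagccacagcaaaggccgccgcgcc
Gata3: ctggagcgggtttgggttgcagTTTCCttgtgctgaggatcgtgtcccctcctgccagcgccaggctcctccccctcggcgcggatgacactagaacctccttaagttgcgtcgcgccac
Rora: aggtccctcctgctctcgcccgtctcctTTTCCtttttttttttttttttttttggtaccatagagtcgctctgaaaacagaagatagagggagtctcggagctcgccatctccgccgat
Eomes: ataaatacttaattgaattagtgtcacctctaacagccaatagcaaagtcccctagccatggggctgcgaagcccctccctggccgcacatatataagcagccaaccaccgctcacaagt
Prdm1: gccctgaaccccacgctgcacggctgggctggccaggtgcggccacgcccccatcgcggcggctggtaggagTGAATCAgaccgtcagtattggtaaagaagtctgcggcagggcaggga

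RefSeq promoters, all of the same length and reaching just past the start site, were at hand for 7 of the 9 members, not for Maf and Ahr, with 9 start sites in all. The NFAT core was found in 8 of these 9, against 61.3% of all 32851 promoters, and the AP-1 motif in 1 of 9, that of Prdm1, against 7.81%. Of the letters that members themselves can bind, AGATAA for the family of GATA3 and AGGTCA for ROR factors were each found in 1 of 9, at a start site of Foxp3 in both cases, against 11.2% and 16.3% of all promoters. GGTGTGA (T-box factors) was in 0 of 9 against 3.98%, GCGTG (AHR) in 4 of 9 against 32.4% and GAAAG (BLIMP-1) in 4 of 9 against 57.3%. Both strands were searched, and the BLIMP-1 letters overlap the NFAT core where a G follows the latter. These matches describe letters in a window and no binding.

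Aim2 itself did not follow the labels in every mouse. At 0 h it stood at 74.9 and 67.4 CPM (counts scaled to a common library size after TMM) in WT mice 3 and 4, at 15.7, 20.1 and 19.0 CPM in Aim2-/- mice 1, 2 and 4, while the library labelled WT 1 held 21.5 CPM. At 24 h that mouse held 5.57 CPM, within the 5.28 to 7.15 CPM of the Aim2-/- libraries. The counts give no view of single exons. The log2 differences of the 9 factors between the genotypes are therefore also given without the mouse labelled WT 1, and for other genes the calls that ended without it are named.

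The genes themselves lie on several chromosomes of GRCm38, and all are protein coding. Tbx21 (ENSMUSG00000001444) is at chr11:97098071-97115331, Eomes (ENSMUSG00000032446) at chr9:118478212-118486132, Gata3 (ENSMUSG00000015619) at chr2:9857078-9890034, Foxp3 (ENSMUSG00000039521) at chrX:7573644-7595245 and Bcl6 (ENSMUSG00000022508) at chr16:23965052-23988852. Maf (ENSMUSG00000055435) is at chr8:115682942-115707794, Rora (ENSMUSG00000032238) at chr9:68653786-69388246, Ahr (ENSMUSG00000019256) at chr12:35497974-35535038 and Prdm1 (ENSMUSG00000038151) at chr10:44437177-44528501. Genes that overlap a member held at most 17 counts in any library, apart from those at Foxp3.

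Markers of the CD4+ T cell were plain in all 24 libraries, with a summed level of 8 genes (Cd4, Cd3d, Trac and others) between 3537 and 5297 CPM, while Cd8a reached at most 4.25 CPM. Markers of other cells were higher in Aim2-/- samples. The 10 B cell markers summed to 352 to 749 CPM in WT and 4347 to 6097 CPM in Aim2-/- samples at 0 h, mostly from the immunoglobulin gene Ighm, while Pax5 was at 0 in 3 libraries and Ms4a1 in 2. At 0 h the 5 plasma cell markers summed to 43.0 to 170 against 390 to 771 CPM, the 9 myeloid markers to 34.5 to 61.8 against 103 to 370 CPM, the 5 basophil and mast cell markers to 7.20 to 9.97 against 53.3 to 102 CPM, and the 6 erythroid markers to 7.70 to 71.7 against 21.1 to 336 CPM. The 5 NK cell and ILC1 markers, of interest because those cells carry T-bet and EOMES, overlapped between the genotypes, with 15.7 to 32.5 and 24.5 to 53.4 CPM. The 2 CD8 T cell markers overlapped as well, at 9.76 to 11.4 and 8.12 to 10.9 CPM, mostly from Cd8b1. Over all times Cd8a reached at most 0.827 CPM in WT and 4.25 CPM in Aim2-/- libraries, and Cd8b1 11.4 and 13.7 CPM.

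**Figure D1:**
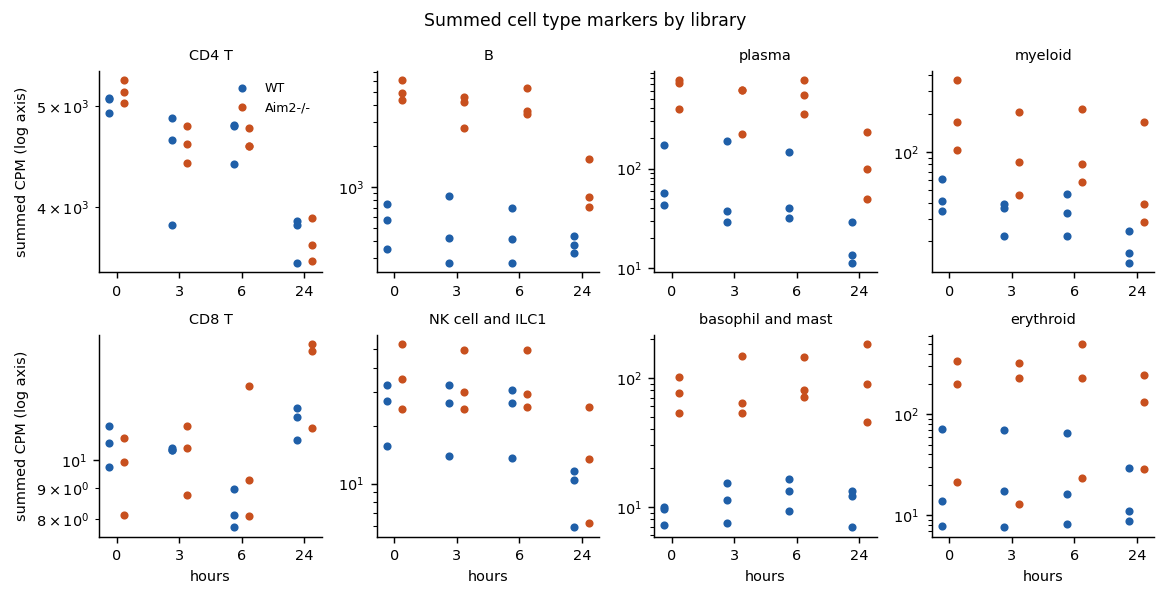
Summed level of each list of cell type markers in every library, in CPM on a log axis, against hours of stimulation, with WT in blue and Aim2-/- in orange (each point is a library, n = 3 per group). B cell markers at 0 h lie between 352 and 749 CPM in WT and between 4347 and 6097 CPM in Aim2-/- libraries, while the CD4 T cell markers of the genotypes overlap there.

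The order of the 9 factors changed within a day. Compared per kilobase of the longest annotated transcript, resting WT cells held Bcl6 at 41.8 CPM per kb, followed by Gata3 (30.3), Foxp3 (27.2), Maf (17.4), Rora (14.3), Eomes (8.71), Tbx21 (8.6), Prdm1 (3.23) and Ahr (2.61). In this order Bcl6 stood clear of Gata3 and Tbx21 stood clear of Prdm1, while the 3 libraries of every other pair of neighbours overlapped. After 24 h the WT order was Tbx21 (95.3), Gata3 (44.2), Foxp3 (12.8), Bcl6 (4.38), Eomes (4.25), Maf (2.83), Ahr (1.21), Prdm1 (1.13) and Rora (0.429). Tbx21, Gata3, Foxp3 and Rora each stood apart from their neighbours there, and the libraries of the other neighbours overlapped. In resting Aim2-/- cells the order began with Bcl6 (54.6), Gata3 (42.6), Foxp3 (38.7), Maf (27.0) and Eomes (24.9), and at 24 h with Tbx21 (81.6), Gata3 (53.1) and Foxp3 (24.5). Rora was last at 24 h in Aim2-/- cells too (0.885), where its libraries overlapped those of Ahr. Per kilobase of all annotated exons Bcl6 was no longer clear of Gata3 in resting WT cells, at 24.5 CPM per kb each.

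**Figure D2:**
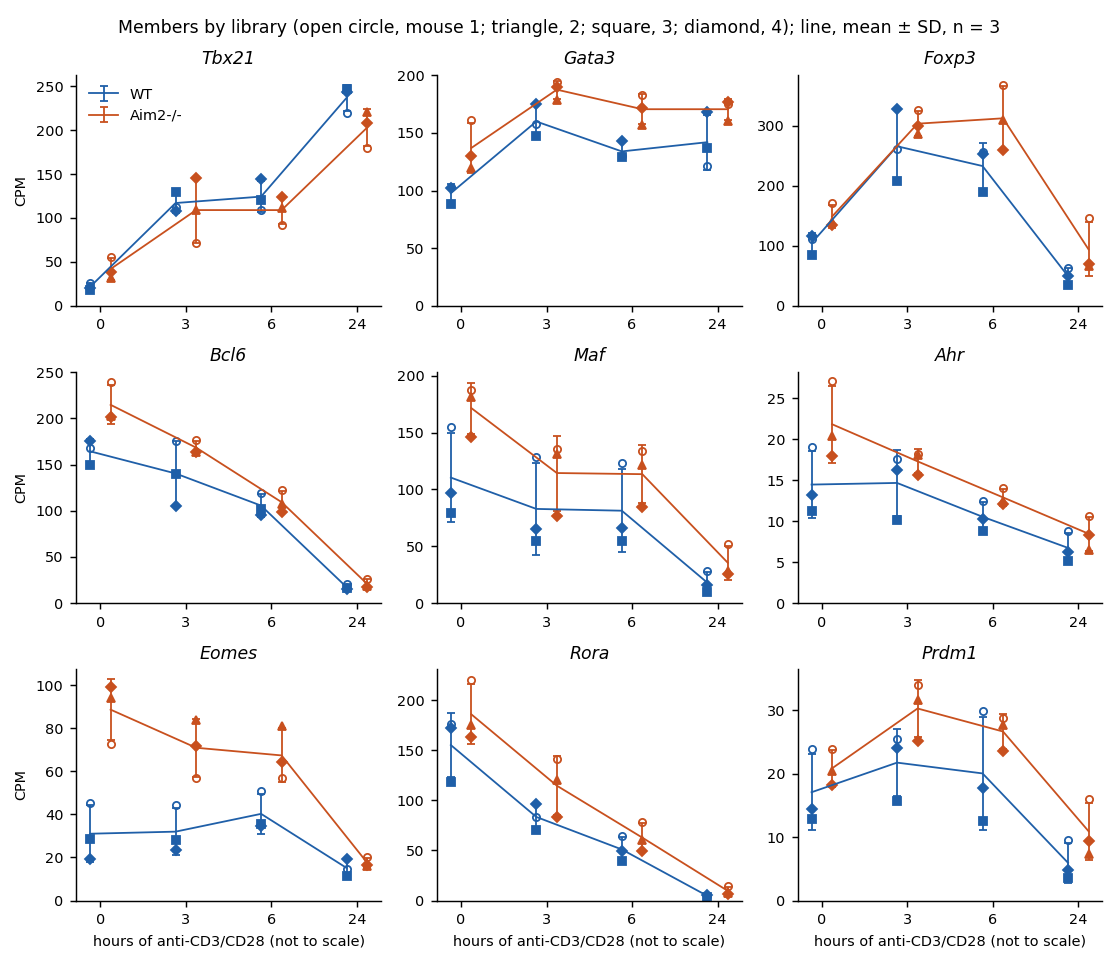
Level of each factor in CPM against hours of stimulation (steps not to scale) in WT (blue) and Aim2-/- (orange) libraries, with a point per mouse and lines at the mean ± SD of 3 mice. Tbx21 climbs from 17.4 to 26.2 CPM in WT mice at 0 h to 220 to 247 CPM at 24 h, while Rora falls from 118 to 176 CPM to 3.29 to 5.80 CPM.

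The time course asks how T cell activation moves these factors. Genes count as called here with an adjusted p under 0.05 in edgeR's quasi-likelihood test over all 24 libraries, with Benjamini-Hochberg adjustment over all 15325 genes tested. In WT cells 3 of 9 factors rose and 1 fell at 3 h, where 16.2% of all genes tested were called higher and 16.4% lower. At 6 h 3 rose and 2 fell (background 26.4% and 24.8%), and at 24 h 2 rose and 7 fell (36.6% and 34.8%). In Aim2-/- cells 3 rose and 1 fell at 3 h (16.1% and 14.6%), 3 rose and 3 fell at 6 h (28.5% and 22.7%), and 2 rose and 7 fell at 24 h (36.8% and 33.5%). The median log2 fold change of the 9 at 24 h was -1.10 in WT and -1.37 in Aim2-/- cells, against -0.01 and 0.03 over all genes tested. All comparisons within a genotype share its 0 h libraries. Levels are scaled to the counts of each library, so rises and falls here are relative and are no amounts per cell.

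Between 3 and 6 h few factors were called, and the shares of all genes were below those at 6 h against 0 h. In WT cells 0 factors were called higher and 1 lower (Rora), with 14.2% and 11.5% of all genes called. In Aim2-/- cells 0 were called higher and 2 lower (Rora and Bcl6), with 13.4% and 9.89% called. With the mouse as a block Bcl6 (-0.40, adjusted p = 0.00531), Gata3 (-0.25, 0.0192) and Ahr (-0.47, 0.00812) were called in WT cells as well. Ahr was then also called in Aim2-/- cells (-0.43, 0.0129). The shares of all genes above are those without the block. More factors were called between 6 and 24 h, when Tbx21 rose further and 7 factors fell in each genotype. The background was then 29.6% higher and 28.0% lower in WT and 27.4% and 27.0% in Aim2-/- cells. Gata3 was the member not called in that step.

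**Figure D3:**
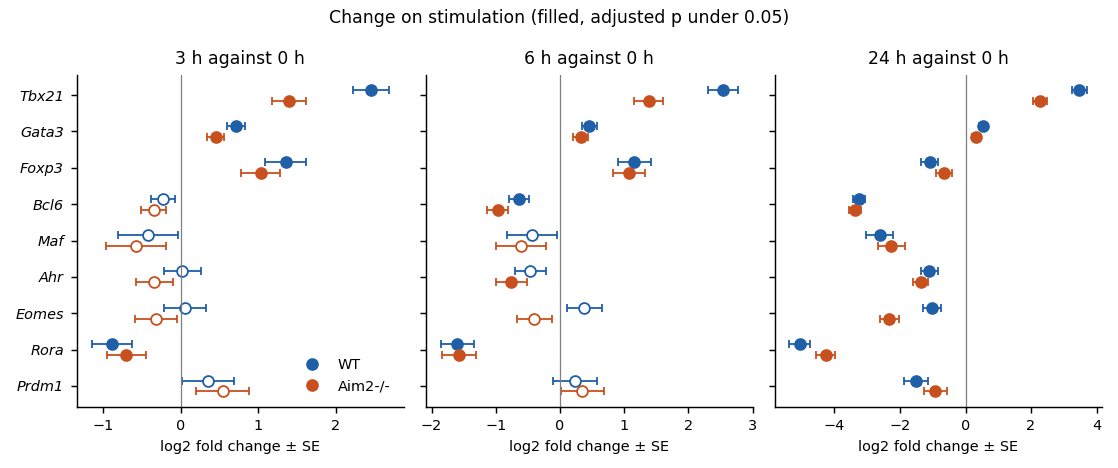
Log2 fold change of each factor against 0 h at 3, 6 and 24 h, with bars for the standard error, WT in blue and Aim2-/- in orange, filled where the adjusted p was under 0.05. Tbx21 reaches 3.47 in WT and 2.28 in Aim2-/- cells at 24 h, and Rora reaches -5.05 and -4.27.

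Tbx21, the Th1 factor, was higher at 3 h and rose again between 6 and 24 h. From 3 to 6 h the change was 0.09 in WT (adjusted p = 0.809) and -0.00 in Aim2-/- cells (0.994), and neither was called. In WT mice 1, 3 and 4 it stood at 26.2, 17.4 and 20.6 CPM at 0 h, 113, 130 and 108 CPM at 3 h, 109, 120 and 144 CPM at 6 h, and 220, 247 and 244 CPM at 24 h. In Aim2-/- mice 1, 2 and 4 it stood at 55.4, 32.0 and 37.9 CPM at 0 h, 71.9, 109 and 146 CPM at 3 h, 91.8, 111 and 124 CPM at 6 h, and 180, 221 and 208 CPM at 24 h. No stimulated library overlapped those at 0 h in either genotype, and each of the 6 mice had its highest level at 24 h. Aim2-/- mouse 1 started highest and gained least at 3 h, by 0.38 on the log2 scale against 1.77 and 1.95 in the other Aim2-/- mice. The log2 fold change at 3, 6 and 24 h was 2.45 ± 0.23 (SE, adjusted p = 6.4e-08), 2.54 ± 0.23 (9.0e-09) and 3.47 ± 0.23 (2.6e-11) in WT cells and 1.39 ± 0.22 (5.2e-05), 1.38 ± 0.22 (1.7e-05) and 2.28 ± 0.22 (8.2e-09) in Aim2-/- cells by edgeR.

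The call on whether Tbx21 rose less in Aim2-/- cells depended on the fit. The difference of the 2 responses was -1.06 ± 0.30 at 3 h (adjusted p = 0.946), -1.16 ± 0.30 at 6 h (0.0961) and -1.19 ± 0.30 at 24 h (0.128). With the mouse as a block in edgeR it was -1.18 at 6 h (adjusted p = 0.0252) and -1.20 at 24 h (0.0273), and these were called, as they were by DESeq2 (-1.18, 0.0135 and -1.19, 0.0167). With no filter on low counts it was called at 3, 6 and 24 h (-1.04, -1.21 and -1.19, with adjusted p of 0.0195, 4.7e-04 and 7.3e-04). Without the mouse labelled WT 1 and with no block the values were -1.26, -1.42 and -1.41, with adjusted p of 0.807, 0.129 and 0.107. The genotypes were apart at 0 h and overlapped at 3, 6 and 24 h.

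The Th1 genes around Tbx21 did not move as 1 group. Of 11 in the list, where at 24 h 36.6% of all genes tested were called higher and 34.8% lower in WT and 36.8% and 33.5% in Aim2-/- cells, 3 rose and 7 fell at 24 h in WT cells (median log2 fold change -1.54), and 2 rose and 8 fell in Aim2-/- cells (median -1.44). Il12rb1, a chain of the IL-12 receptor, rose from 8.17 to 346 CPM in WT cells (5.4 ± 0.31, adjusted p = 2.6e-12) and by 4.93 ± 0.30 in Aim2-/- cells. Ifng, the Th1 cytokine, rose by 2.78 ± 0.46 in WT (adjusted p = 1.8e-05) and by 3.56 ± 0.47 in Aim2-/- cells (7.6e-07). The largest falls were those of the chemokine Ccl5 (-4.58 ± 0.29 in WT, -3.99 ± 0.27 in Aim2-/-) and of the IL-18 receptor chains Il18r1 (-3.99 ± 0.24 and -3.09 ± 0.23) and Il18rap (-2.70 ± 0.31 and -2.21 ± 0.30).

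Eomes, the T-box relative of T-bet, fell by 24 h while Tbx21 rose. Levels in WT mice 1, 3 and 4 were 45.4, 28.5 and 19.2 CPM at 0 h, 50.8, 35.6 and 34.4 CPM at 6 h and 14.8, 11.2 and 19.4 CPM at 24 h. Levels in Aim2-/- mice 1, 2 and 4 were 72.7, 94.0 and 99.3 CPM at 0 h, 56.8, 81.2 and 64.2 CPM at 6 h and 20.2, 16.0 and 16.6 CPM at 24 h. All Aim2-/- libraries fell below every unstimulated library of that genotype at 24 h, whereas in WT mouse 4 the level at 24 h was about that at 0 h. On the log2 scale the change at 24 h was -1.03 ± 0.28 in WT cells (adjusted p = 0.00267) and -2.33 ± 0.29 in Aim2-/- cells (2.9e-07). At 3 and 6 h no change of Eomes was called, with values of 0.05 ± 0.27 and 0.38 ± 0.27 in WT and -0.32 ± 0.27 and -0.40 ± 0.27 in Aim2-/- cells. Without the WT 0 h library of mouse 1 the WT value at 6 h was 0.72 (adjusted p = 0.0358).

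The difference of the 2 Eomes responses at 24 h was -1.30 ± 0.39 (adjusted p = 0.190) and was called with the mouse as a block (-1.35, adjusted p = 0.0191), by DESeq2 (-1.31, 0.0453) and with no filter on low counts (-1.31, 0.00208). Without the mouse labelled WT 1 it was -1.70 ± 0.33 (adjusted p = 0.0807). The difference at 6 h was -0.77 ± 0.38 (adjusted p = 0.395), and -0.96 ± 0.32 without that mouse (0.267).

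Gata3, the Th2 factor, rose early by a small amount, and in WT cells it was still up at 24 h. The WT mice 1, 3 and 4 held 103, 88.1 and 102 CPM at 0 h, 158, 147 and 175 CPM at 3 h and 121, 137 and 168 CPM at 24 h. The Aim2-/- mice 1, 2 and 4 held 161, 120 and 130 CPM at 0 h, 194, 179 and 190 CPM at 3 h and 175, 160 and 177 CPM at 24 h. Each of the 6 mice peaked at 3 h, and the WT groups did not overlap with 0 h at any time. The log2 fold change at 3, 6 and 24 h was 0.71 ± 0.12 (adjusted p = 6.1e-05), 0.46 ± 0.12 (0.00211) and 0.54 ± 0.12 (2.6e-04) in WT cells and 0.45 ± 0.11 (0.00464), 0.32 ± 0.11 (0.0260) and 0.32 ± 0.11 (0.0187) in Aim2-/- cells. In Aim2-/- cells the libraries at 6 and 24 h overlapped those at 0 h. The call at 3 h ended without mouse 4 (0.41, adjusted p = 0.0796). Those at 6 and 24 h ended without mouse 2 (0.29 and 0.27), without mouse 4 (0.27 and 0.25), without the 0 h library of mouse 2 (0.20 and 0.22) or 4 (0.24 and 0.25), and without the library of mouse 4 at that time (0.31 and 0.29). That at 6 h also ended without the 6 h library of mouse 1 (0.27). Over all mice both ended with RLE size factors (adjusted p = 0.0743 at 6 h and 0.0590 at 24 h), DESeq2 (0.0691 and 0.0554), no filter on low counts (0.0821 and 0.0649) and the compared groups alone (0.0793 and 0.0576).

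Of the 8 Th2 genes, 4 rose and 2 fell at 24 h in WT cells (median 0.16), where 36.6% and 34.8% of all genes tested did. In Aim2-/- cells 3 rose and 2 fell (median 0.29), where 36.8% and 33.5% of all genes did. The cytokine Il13 rose by 4.65 ± 0.71 in WT (adjusted p = 5.8e-06) and by 3.78 ± 0.63 in Aim2-/- cells (1.8e-05), and Il4 by 1.73 ± 0.54 (0.00743) and 1.56 ± 0.51 (0.0105). Il4 was higher at 6 h, with a mean of 111 CPM in WT cells against 14.0 CPM at 24 h. The chemokine receptor Ccr4 rose by 2.67 ± 0.19 and 2.19 ± 0.19. Il1rl1, the IL-33 receptor, fell by 2.93 ± 0.43 and 2.25 ± 0.40, and Stat6, which carries the IL-4 signal, by 0.82 ± 0.10 and 0.81 ± 0.10 in WT and Aim2-/- cells.

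Foxp3, the Treg factor, rose and then fell below its start. WT mice 1, 3 and 4 held 111, 84.9 and 117 CPM at 0 h, 261, 208 and 329 CPM at 3 h, 257, 189 and 253 CPM at 6 h, and 62.9, 34.5 and 49.9 CPM at 24 h. Aim2-/- mice 1, 2 and 4 held 171, 140 and 135 CPM at 0 h, 326, 286 and 299 CPM at 3 h, 369, 309 and 260 CPM at 6 h, and 146, 66.3 and 69.3 CPM at 24 h. The early libraries were above all 0 h libraries in both genotypes, and the WT libraries at 24 h were below them, while Aim2-/- mouse 1 at 24 h overlapped the 0 h range. On the log2 scale the change at 3, 6 and 24 h was 1.35 ± 0.26 (adjusted p = 3.4e-04), 1.16 ± 0.26 (6.8e-04) and -1.09 ± 0.26 (8.1e-04) in WT cells and 1.03 ± 0.25 (0.00384), 1.07 ± 0.25 (0.00136) and -0.66 ± 0.25 (0.0260) in Aim2-/- cells. The last of these calls ended without Aim2-/- mouse 2 (-0.50) or 4 (-0.55), without their 24 h libraries (-0.46 and -0.48) and without the 0 h library of mouse 1 (-0.60), and with the compared groups alone (-0.69, adjusted p = 0.0549). The gene overlaps Flicr on its strand and Ccdc22, Ppp1r3f and Gm36995 on the other, which held at most 60, 171, 98 and 28 counts, and whether counting used the strand is not stated.

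Of the 13 Treg genes, 4 rose and 6 fell at 24 h in WT cells (median -0.95), where 36.6% and 34.8% of all genes tested did. In Aim2-/- cells 3 rose and 8 fell (median -1.21), where 36.8% and 33.5% of all genes did. Il2ra, the IL-2 receptor chain that activated T cells also carry, rose by 2.94 ± 0.16 in WT (adjusted p = 8.3e-13) and 3.17 ± 0.16 in Aim2-/- cells, and the receptor Gpr83 by 2.82 ± 0.32 and 2.86 ± 0.31. The Treg-associated factors Ikzf2 (-2.34 ± 0.38 and -1.89 ± 0.37) and Ikzf4 (-2.23 ± 0.19 and -1.56 ± 0.18) and the integrin Itgae (-2.95 ± 0.56 and -2.97 ± 0.54) fell.

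Bcl6, the Tfh factor, declined slowly and then steeply. In WT mice 1, 3 and 4 it stood at 168, 150 and 175 CPM at 0 h, 119, 102 and 95.6 CPM at 6 h and 20.2, 15.9 and 15.7 CPM at 24 h. In Aim2-/- mice 1, 2 and 4 it stood at 239, 203 and 202 CPM at 0 h, 122, 107 and 98.8 CPM at 6 h and 26.6, 18.6 and 17.1 CPM at 24 h. The 3 times did not overlap within a genotype. The log2 fold change was -0.64 ± 0.16 at 6 h (adjusted p = 0.00222) and -3.25 ± 0.18 at 24 h (1.5e-12) in WT cells and -0.97 ± 0.16 (3.6e-05) and -3.37 ± 0.18 (1.3e-12) in Aim2-/- cells. At 3 h it was -0.23 ± 0.16 (adjusted p = 0.306) and -0.35 ± 0.16 (0.103), the latter called with the mouse as a block (adjusted p = 0.0104). The drop between 3 and 6 h in Aim2-/- cells was 0.62 ± 0.16 (adjusted p = 0.00818), and that call ended without mouse 2 (-0.63), without mouse 4 (-0.57) or without the 6 h library of mouse 4 (-0.55). In WT cells the same step was called with the block (-0.40, adjusted p = 0.00531) and without the 3 h library of mouse 4 (-0.58, 0.0142).

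Maf, the other factor of Tfh cells in the set, differed more between mice. Levels in WT mice 1, 3 and 4 were 155, 79.5 and 97.0 CPM at 0 h, 123, 54.7 and 66.3 CPM at 6 h and 28.5, 9.96 and 15.5 CPM at 24 h. Levels in Aim2-/- mice 1, 2 and 4 were 188, 181 and 146 CPM at 0 h, 134, 122 and 84.5 CPM at 6 h and 52.4, 28.4 and 25.6 CPM at 24 h. Among WT mice, the one labelled WT 1 was the highest at every time. On the log2 scale the change at 24 h was -2.62 ± 0.42 in WT (adjusted p = 1.0e-05) and -2.27 ± 0.41 in Aim2-/- cells (4.3e-05). The values at 3 and 6 h, -0.42 ± 0.39 and -0.44 ± 0.39 in WT and -0.58 ± 0.39 and -0.60 ± 0.39 in Aim2-/- cells, were not called, yet all 6 mice went down at both times. With the mouse as a block these were -0.46, -0.47, -0.62 and -0.62, with adjusted p of 0.00423, 0.00223, 3.1e-04 and 1.6e-04, and were called.

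Of 11 Tfh genes, 3 rose and 6 fell at 24 h in each genotype (median -0.77 in WT, -0.69 in Aim2-/-), where over all genes tested 36.6% rose and 34.8% fell in WT and 36.8% and 33.5% in Aim2-/- cells. The surface protein Cd200 rose by 3.99 ± 0.23 in WT and 3.16 ± 0.22 in Aim2-/- cells, the inhibitory receptor Btla by 1.08 ± 0.16 and 0.80 ± 0.16, and the regulator Id3 by 1.24 ± 0.24 and 0.79 ± 0.23. The follicle-homing receptor Cxcr5 fell by 1.86 ± 0.34 and 2.00 ± 0.34 and the co-receptor Icos by 1.70 ± 0.14 and 1.80 ± 0.14, in the direction of Bcl6. The cytokine Il21 fell by 1.68 ± 0.45 in WT cells (adjusted p = 0.00217) and stood at -0.69 ± 0.43 in Aim2-/- cells (0.161).

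Rora, a nuclear receptor of Th17 cells, showed the largest change of the 9. The WT mice 1, 3 and 4 held 176, 118 and 172 CPM at 0 h, 83.4, 70.5 and 96.6 CPM at 3 h, 64.2, 39.4 and 49.5 CPM at 6 h, and 4.91, 3.29 and 5.80 CPM at 24 h. The Aim2-/- mice 1, 2 and 4 held 220, 175 and 163 CPM at 0 h, 141, 120 and 83.2 CPM at 3 h, 78.3, 60.3 and 49.9 CPM at 6 h, and 14.6, 7.35 and 6.92 CPM at 24 h. The level went down at each step in every mouse, and stimulated libraries lay below all 0 h libraries. The log2 fold change at 3, 6 and 24 h was -0.89 ± 0.26 (adjusted p = 0.00992), -1.60 ± 0.26 (2.6e-05) and -5.05 ± 0.32 (1.0e-11) in WT cells and -0.70 ± 0.25 (0.0429), -1.57 ± 0.26 (3.7e-05) and -4.27 ± 0.30 (6.9e-11) in Aim2-/- cells. The 3 h call in WT cells ended without mouse 1 (-0.79, adjusted p = 0.0924) or the 3 h library of mouse 3 (-0.79, 0.0546). In Aim2-/- cells it ended without mouse 2 (-0.77) or 4 (-0.60), without the 0 h library of mouse 1 (-0.58) or 2 (-0.73) and without the 3 h library of mouse 2 (-0.73) or 4 (-0.51). Over all mice the Aim2-/- call also ended with library totals only (-0.58, adjusted p = 0.115). The step from 3 to 6 h was called in WT (-0.71 ± 0.26) and Aim2-/- cells (-0.87 ± 0.26), with adjusted p of 0.0483 and 0.0181. The WT call ended without mouse 1, 3 or 4, the 3 h library of mouse 1 or 4 or the 6 h library of mouse 3 or 4 (-0.55 to -0.91), and the Aim2-/- call without mouse 2, the 3 h library of mouse 1 or 2 or the 6 h library of mouse 2 or 4 (-0.69 to -0.84). Library totals only, over all mice, ended the WT call of this step too (-0.72, adjusted p = 0.0601).

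Of the 10 Th17 genes, 3 rose and 4 fell at 24 h in WT cells (median -0.29), where 36.6% and 34.8% of all genes tested did. In Aim2-/- cells 4 rose and 3 fell (median 0.27), where 36.8% and 33.5% of all genes did. The factors Irf4 (2.12 ± 0.21 and 1.89 ± 0.20) and Batf (1.37 ± 0.13 and 1.14 ± 0.13), which many activated T cells induce, and the cytokine Il17a (3.5 ± 0.96 and 4.16 ± 0.83, at 2.17 and 7.70 CPM) rose in both genotypes. The receptor Il23r fell by 2.03 ± 0.48 and 1.59 ± 0.46, the chemokine receptor Ccr6 by 1.58 ± 0.31 and 1.83 ± 0.31, and the IL-1 receptor Il1r1 fell by 1.63 ± 0.64 in WT cells (adjusted p = 0.0287), while it stood at -0.78 ± 0.61 in Aim2-/- cells (0.256).

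Ahr, the ligand-activated receptor, was among the least abundant members. WT mice 1, 3 and 4 held 19.0, 11.2 and 13.2 CPM at 0 h and 8.76, 5.19 and 6.26 CPM at 24 h, and Aim2-/- mice 1, 2 and 4 held 27.1, 20.4 and 18.0 CPM at 0 h and 10.6, 6.49 and 8.31 CPM at 24 h. The groups at 0 and 24 h did not overlap. On the log2 scale the change was -1.10 ± 0.25 in WT (adjusted p = 4.4e-04) and -1.37 ± 0.24 in Aim2-/- cells (4.2e-05). At 6 h the value was -0.46 ± 0.24 in WT cells (adjusted p = 0.119, called with the mouse as a block at 0.00647 and without the WT 0 h library of mouse 3 at 0.0431). In Aim2-/- cells it was -0.76 ± 0.24 (adjusted p = 0.0112), and this call ended without mouse 1 (-0.65). The step from 6 to 24 h (-0.64 ± 0.25 and -0.61 ± 0.24) had adjusted p of 0.0305 and 0.0405. The WT call ended without mouse 4, its 6 or 24 h library, the 6 h library of mouse 1 or the 24 h library of mouse 3 (-0.51 to -0.66), and the Aim2-/- call without mouse 2 or 4, any 6 h library or the 24 h library of mouse 2 or 4 (-0.45 to -0.65). By limma-voom over all mice the WT call of this step ended too (-0.67, adjusted p = 0.0507).

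Of the AHR pathway, 9 of 10 genes were tested, Cyp1b1 having at most 9 counts. In WT cells 3 rose and 2 fell at 24 h (median 1.09), where 36.6% and 34.8% of all genes tested did. In Aim2-/- cells 6 rose and 2 fell (median 1.5), where 36.8% and 33.5% of all genes did. The rises were led by the chaperones that hold AHR in the cytosol but serve many other proteins, Hsp90aa1 (2.50 ± 0.20 in WT, 1.77 ± 0.19 in Aim2-/-), Hsp90ab1 (2.14 ± 0.15 and 1.66 ± 0.15) and Ptges3 (1.58 ± 0.17 and 1.5 ± 0.16). The DNA-binding partner Arnt fell by 1.62 ± 0.10 in both genotypes, and Tiparp, an AHR target that represses it, fell by 1.92 ± 0.12 and 2.16 ± 0.12.

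Prdm1, which opposes Bcl6, was low at rest and fell as well. In WT mice 1, 3 and 4 it stood at 23.9, 12.8 and 14.5 CPM at 0 h, 25.5, 15.7 and 24.0 CPM at 3 h and 9.52, 3.54 and 4.77 CPM at 24 h. Aim2-/- mice 1, 2 and 4 held 23.9, 20.4 and 18.2 CPM at 0 h, 34.0, 31.6 and 25.2 CPM at 3 h and 16.0, 7.35 and 9.43 CPM at 24 h. The level at 24 h was below all libraries at 0 h in both genotypes. The log2 fold change at 24 h was -1.52 ± 0.36 in WT (adjusted p = 7.5e-04) and -0.93 ± 0.35 in Aim2-/- cells (0.0218). The latter call ended without mouse 2 (-0.72) or 4 (-0.92), without their 24 h libraries (-0.71 and -0.83) and without the 0 h library of mouse 1 (-0.86). Its fall from 6 to 24 h in Aim2-/- cells (-1.28 ± 0.35, adjusted p = 0.00378) lost its call without mouse 2 (-1.03, 0.0659). At 3 h the value was 0.35 ± 0.34 and 0.54 ± 0.34, with all 6 mice up, and that of Aim2-/- cells was called with the mouse as a block (adjusted p = 0.00923). With the block, 8 of 9 members were called at 3 h in Aim2-/- cells instead of 4, the additions being Bcl6, Maf, Ahr (-0.32, adjusted p = 0.0472) and Prdm1, and in WT cells 4 of 9 were called between 3 and 6 h instead of 1, the additions being Bcl6, Gata3 (-0.25, adjusted p = 0.0192) and Ahr (-0.47, adjusted p = 0.00812). Ahr in that step was also called without the 3 h library of WT mouse 3 (-0.69, 0.0494), and in Aim2-/- cells with the block (-0.43, 0.0129). How many of all genes were called with the block is not given here, so these counts have no background beside them.

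Partners and relatives of the 9 were counted as well. At 24 h 36.6% of all genes tested rose and 34.8% fell in WT cells, and 36.8% and 33.5% in Aim2-/- cells. Of 18 partner and opposing factors, 3 rose and 12 fell at 24 h in WT cells (median -0.82). In Aim2-/- cells 4 of these factors rose and 13 fell (median -0.85). Foxo1, which keeps T cells quiescent, fell by 1.99 ± 0.09 in WT cells, Ets1 by 2.17 ± 0.16, and Bhlhe40, a factor of cytokine-producing cells, by 1.99 ± 0.22, while Zfpm1, a partner of GATA factors, rose by 1.71 ± 0.20 and Zbtb7b, the CD4 lineage factor, by 1.23 ± 0.13. In Aim2-/- cells these were -1.90 ± 0.09, -2.05 ± 0.16, -2.44 ± 0.22, 1.20 ± 0.20 and 1.11 ± 0.13. Of 10 family relatives tested (Rorb had at most 3 counts), 4 rose and 2 fell in WT and 3 rose and 3 fell in Aim2-/- cells. Gata1 rose by 1.60 ± 0.38 in WT and 1.45 ± 0.36 in Aim2-/- cells, and Maff, a small relative of c-MAF, fell by 1.68 ± 0.17 and 1.95 ± 0.17. Bcl6b, the closest relative of Bcl6, rose from 0.256 to 4.05 CPM in WT cells (3.96 ± 0.58) and by 3.09 ± 0.57 in Aim2-/- cells.

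The genotypes were compared next, which is what the series was designed for. At 0 h 3 of 9 factors were called higher and 0 lower in Aim2-/- cells, where 5.23% of all genes tested were called in either direction, and all 9 values were positive (median 0.51, over all genes -0.01). At 3 h 0 of 9 were called by edgeR (background 0.294%), 1 by DESeq2 and 1 by limma-voom. By edgeR 1 of 9 had an unadjusted p under 0.05 at 3 h, as had 2351 of all 15325 genes tested. At 6 h 1 of 9 was called (15.8%), and at 24 h 0 of 9 (0.666%), with 2 by DESeq2 and 0 by limma-voom. At 24 h 5 of 9 had an unadjusted p under 0.05 by edgeR, as had 3134 of all 15325 genes tested. The shares of all genes called by DESeq2 and limma-voom are not given here. The value was positive in 8 of 9 at 3, 6 and 24 h, Tbx21 being the exception. The counts of called members at 0, 3, 6 and 24 h were 4, 1, 1 and 2 of 9 without the mouse labelled WT 1. The shares of all genes called without that mouse are not given here either. The B cell, plasma cell, myeloid and basophil markers given above were higher in Aim2-/- samples as well, and their part in these differences was not tested. A fit with marker scores held the scaled mean log2 CPM of the B cell and of the myeloid markers as terms. Summed B cell and myeloid markers did not overlap between the genotypes at any time, so the fit cannot separate these markers from the genotype. In that fit the 0 h values of Bcl6, Foxp3, Rora and Prdm1 were 0.18, 0.22, 0.01 and 0.08, and those of Maf and Ahr 0.42 and 0.44.

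**Figure D4:**
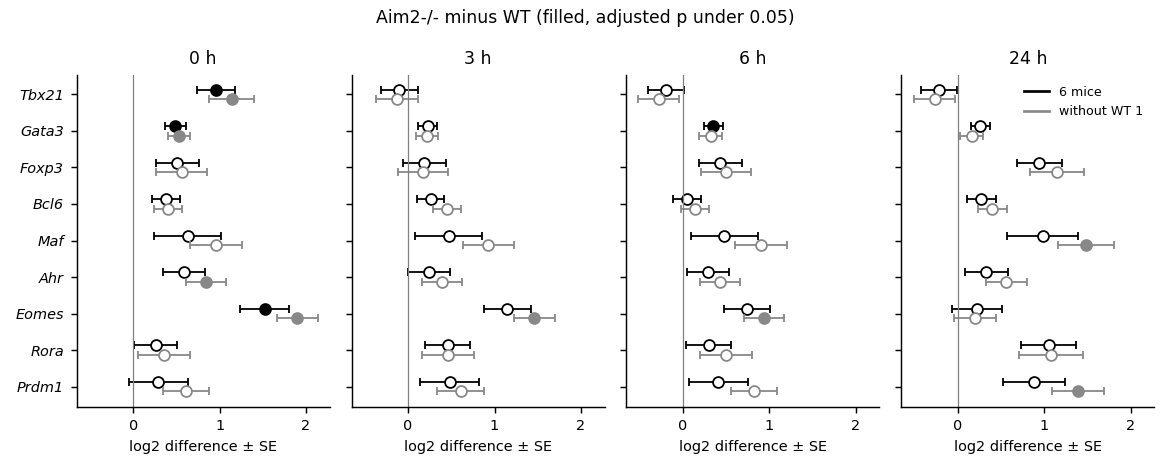
Log2 difference between Aim2-/- and WT cells with its standard error for each factor at 0, 3, 6 and 24 h, over all 6 mice (black) and without the mouse labelled WT 1 (grey), filled where the adjusted p was under 0.05. Eomes goes from 1.52 at 0 h over 1.15 and 0.74 to 0.22 at 24 h, and Tbx21 from 0.96 at 0 h to values just below 0.

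Eomes differed most. At 0 h the 3 Aim2-/- mice (72.7 to 99.3 CPM) lay above the 3 WT mice (19.2 to 45.4 CPM), and the same held at 3 h (57.1 to 84.0 against 23.5 to 44.5 CPM) and 6 h. The groups overlapped at 24 h. The log2 difference was 1.52 ± 0.28 at 0 h (adjusted p = 0.00698), 1.15 ± 0.27 at 3 h (0.0724), 0.74 ± 0.27 at 6 h (0.0635) and 0.22 ± 0.29 at 24 h (0.700). Without the mouse labelled WT 1 it was 1.90 ± 0.24 (adjusted p = 4.0e-04), 1.46 ± 0.24 (0.00432), 0.94 ± 0.23 (0.0216) and 0.20 ± 0.24 (0.687), and at 3 h the call also came without its 3 h library (1.46, 0.0274). The call at 0 h ended without WT mouse 3 (1.43, adjusted p = 0.0907), WT mouse 4 (1.23, 0.0544), Aim2-/- mouse 4 (1.43, 0.0550) or the 0 h library of WT mouse 3 (1.43, 0.0509). Other fits over all 6 mice called Eomes at 3 and 6 h, namely DESeq2 (1.14, adjusted p = 0.00475, and 0.71, 0.0422), no filter on low counts (1.14, 2.9e-06, and 0.67, 0.00548) and limma-voom without the mouse as a block (1.18, 0.0432, and 0.74, 0.0442) and with it (1.18, 0.0162, and 0.75, 0.0292). With scores of the B cell and myeloid markers in the model the differences at 0, 3, 6 and 24 h were 1.65 (adjusted p = 0.0126), 1.25 (0.0770), 0.87 (0.0965) and 0.36 (0.857).

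Tbx21 was called at 0 h and, by edgeR, at no later time. The Aim2-/- mice held 32.0 to 55.4 CPM and the WT mice 17.4 to 26.2 CPM, without overlap, and at the later times the groups overlapped. The log2 difference was 0.96 ± 0.22 (adjusted p = 0.0197) at 0 h and -0.10 ± 0.21, -0.20 ± 0.21 and -0.22 ± 0.21 at 3, 6 and 24 h (0.855, 0.536 and 0.571). Without the mouse labelled WT 1 the 0 h value was 1.14 ± 0.26 (adjusted p = 0.0189) and the later ones -0.13, -0.28 and -0.27 (0.814, 0.435 and 0.559), and with the marker scores it was 1.10 (0.0337). The call ended without WT mouse 3 (0.80), WT mouse 4 (0.90), the 0 h library of either, or the 0 h library of Aim2-/- mouse 1 (0.68, adjusted p = 0.193), and with the compared groups alone (0.98, 0.0608).

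Gata3 was higher at 0 h by 0.49 ± 0.12 (adjusted p = 0.0231) and at 6 h by 0.35 ± 0.11 (0.0454), with no overlap at 0, 3 and 6 h. At 3 h the value was 0.23 ± 0.11 (adjusted p = 0.338) and at 24 h 0.26 ± 0.11 (0.203). Without the mouse labelled WT 1 the 4 values were 0.53 (adjusted p = 0.0252), 0.22 (0.348), 0.32 (0.101) and 0.16 (0.526). The 0 h call ended without WT mouse 3 (0.38) or 4 (0.49), Aim2-/- mouse 1 (0.36) or 4 (0.53), or their 0 h libraries (0.33 to 0.49), and the 6 h call ended without any mouse but Aim2-/- mouse 2 (0.28 to 0.35) and without any of 5 libraries at 6 h (0.29 to 0.39). With the marker scores the 0 h value was 0.42 (adjusted p = 0.107) and the 6 h value 0.31 (0.151), neither called. The compared groups alone ended both calls too (0.50, adjusted p = 0.0667, and 0.34, 0.0567), and RLE size factors (0.31, 0.0668) and no filter (0.27, 0.161) the one at 6 h. Gata2, a relative used by basophils and mast cells, was higher by 1.99 ± 0.44 at 0 h (adjusted p = 0.0176), 1.75 ± 0.43 at 6 h (0.0154) and 1.93 ± 0.44 at 24 h (0.0442, and 2.05 with 0.0801 without the mouse labelled WT 1), beside the basophil and mast cell markers given above.

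Foxp3 was not called between the genotypes at any time by edgeR over all 6 mice. The Aim2-/- libraries lay above the WT libraries at 0, 6 and 24 h and overlapped them at 3 h. The log2 difference was 0.51 ± 0.25 at 0 h (adjusted p = 0.228), 0.19 ± 0.25 at 3 h (0.747), 0.43 ± 0.25 at 6 h (0.237) and 0.94 ± 0.26 at 24 h (0.0785). The 24 h value was called without Aim2-/- mouse 2 (1.13, adjusted p = 0.0132) or its 24 h library (1.13, 0.0111) and over all mice by DESeq2 (0.90, 0.0151) and with no filter on low counts (0.88, 9.7e-05). Leaving out the mouse labelled WT 1 gave 0.56, 0.17, 0.50 and 1.15 at 0, 3, 6 and 24 h (adjusted p = 0.272, 0.785, 0.258 and 0.0786). With the marker scores they were 0.22, -0.00, 0.22 and 0.61 (adjusted p = 0.714, 1, 0.666 and 0.672). Of 13 Treg genes, those called higher in Aim2-/- cells were Il2rb at 0 h (0.55 ± 0.12, adjusted p = 0.0173) and Tnfrsf18 at 6 h (0.48 ± 0.12, 0.0151). Il2ra was called lower at 6 h (-0.50 ± 0.14, 0.0286). Over all genes tested, 5.23% were called in either direction at 0 h and 15.8% at 6 h.

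Rora, Maf, Prdm1, Ahr and Bcl6 were likewise not called by edgeR over all 6 mice. Rora differed by 1.05 ± 0.32 at 24 h (adjusted p = 0.0963), with 6.92 to 14.6 CPM in Aim2-/- and 3.29 to 5.80 CPM in WT libraries, and was called without Aim2-/- mouse 2 (1.21, 0.0324) or its 24 h library (1.21, 0.0239), by DESeq2 (1.01, 0.0156) and with no filter on low counts (1.00, 3.0e-04). It was 1.08 ± 0.37 without the mouse labelled WT 1 (adjusted p = 0.158). At 24 h Maf differed by 0.98 ± 0.41 (adjusted p = 0.189) and Prdm1 by 0.88 ± 0.36 (0.181), with overlapping groups. Both were called without the mouse labelled WT 1, at 1.48 ± 0.32 (adjusted p = 0.0370) and 1.39 ± 0.30 (0.0348), and with no filter over all mice (0.93, 0.00618, and 0.83, 0.0281). Ahr differed by 0.59 ± 0.24 at 0 h (adjusted p = 0.135) and was called there without the mouse labelled WT 1 (0.84 ± 0.23, 0.0417) and with the mouse as a block in limma-voom (0.60, 0.0428). Bcl6 differed by 0.38 ± 0.16 at 0 h (adjusted p = 0.149) and by 0.05 ± 0.16 at 6 h, and by 0.40 (0.131) and 0.14 (0.570) without the mouse labelled WT 1. With the marker scores its 6 h value was -0.15 (adjusted p = 0.603).

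Among the Th1 genes 3, 0, 4 and 1 of 11 were higher in Aim2-/- cells at 0, 3, 6 and 24 h and none was lower, where 3.24%, 0.254%, 8.78% and 0.659% of all genes tested were called higher and 1.99%, 0.0392%, 7.01% and 0.00653% lower. Ccl5 was higher by 1.03 ± 0.24 at 0 h (adjusted p = 0.0206), 1.24 ± 0.24 at 6 h (0.00601) and 1.63 ± 0.28 at 24 h (0.0117), and Hlx, a partner of T-bet, by 1.85 ± 0.51 at 0 h (0.0398) and 1.86 ± 0.50 at 6 h (0.0209) at levels under 2 CPM. Cxcr3 (0.75 ± 0.24, adjusted p = 0.0434) and Stat4 (0.50 ± 0.12, 0.0143) were also higher at 6 h, while Ifng stood at 1.73 ± 0.43 at 24 h (0.0605, and 1.78 with 0.105 without the mouse labelled WT 1). Of the Th2 genes, Ccr8 was higher at 0 h (0.85 ± 0.21, adjusted p = 0.0277) and Ccr4 (-0.78 ± 0.18, 0.0119) and Stat6 (-0.33 ± 0.10, 0.0320) were lower at 6 h. Of the Tfh genes, the receptor Pdcd1 was higher (1.04 ± 0.26, adjusted p = 0.0301) and the factor Tcf7 lower (-0.54 ± 0.14, 0.0303) at 0 h, and Sh2d1a was higher at 6 h (0.81 ± 0.15, 0.00531).

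Of the Th17 genes, Batf was higher at 0 h (0.68 ± 0.13, adjusted p = 0.00766) and 6 h (0.78 ± 0.13, 0.00369), Stat3 at 0 h (0.49 ± 0.10, 0.0137), and Irf4 was lower at 6 h (-0.80 ± 0.20, 0.0164). Of the partner and opposing factors, Id2 (0.83 ± 0.21, adjusted p = 0.0309), Bhlhe40 (0.83 ± 0.21, 0.0304) and Nfil3 (0.89 ± 0.20, 0.0200) were higher at 0 h, Nfil3 also at 6 h (0.66 ± 0.20, 0.0379). Among those lower at 6 h were Bach2, a repressor of effector genes (-0.85 ± 0.21, adjusted p = 0.0167), Cbfb (-0.27 ± 0.08, 0.0276) and Ncor1 (-0.54 ± 0.16, 0.0330). Foxp1 (-0.50 ± 0.13, adjusted p = 0.0193) and Mafk (-0.47 ± 0.11, 0.0120) of the relatives and Hsp90aa1 (-0.65 ± 0.19, 0.0276) and Hsp90ab1 (-0.54 ± 0.15, 0.0215) of the AHR pathway were lower at 6 h too. Of 34 differences between the genotypes called in 27 genes named here from the lists, all 34 kept their direction and 27 their call without the mouse labelled WT 1. They were picked by their call over all 6 mice, so the kept direction is no test. Calls of list genes that ended on leaving out another mouse or a library are not named here. The 7 calls that ended were those of Hlx at 0 h (2.13, adjusted p = 0.0540), Gata2 at 24 h and, at 6 h, Stat6 (-0.32, 0.0837), Il2ra (-0.46, 0.0742), Ncor1 (-0.44, 0.118), Hsp90aa1 (-0.62, 0.0735) and Hsp90ab1 (-0.54, 0.0542).

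Whether the response to stimulation differed between genotypes was tested for each factor. By edgeR 0 of 9 were called at 3, 6 and 24 h, where 0%, 0.0261% and 0% of all genes were. An unadjusted p under 0.05 was found for 1, 1 and 2 members, and for 653, 2019 and 1825 of all 15325 genes tested. These shares belong to edgeR without the block, and those of all genes by DESeq2 and with the block are not given here. DESeq2 called 1 at 6 h and 2 at 24 h. With the mouse as a block in edgeR 1 of 9 was called at 6 h (Tbx21) and 3 at 24 h, Tbx21, Eomes and Rora, whose fall was smaller in Aim2-/- cells (0.74, adjusted p = 0.0464, against 0.78 ± 0.40 and 0.451 without the block, and 0.72 ± 0.47 and 0.579 without the block and the mouse labelled WT 1).

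With the 4 libraries of each mouse summed, so that a mouse counts once, 0 of 9 were called (background 0.0117% of 17163 genes). Eomes differed by 1.06 ± 0.20 (adjusted p = 0.106), Gata3 by 0.33 ± 0.09 (0.137), Bcl6 by 0.28 ± 0.11 (0.185) and Foxp3 by 0.41 ± 0.17 (0.203), while Tbx21 stood at -0.10 ± 0.10 (0.541). Without the mouse labelled WT 1 Eomes was called (1.32 ± 0.13, adjusted p = 0.0130), and the others stood at 0.31, 0.39, 0.46 and -0.14 (0.174, 0.107, 0.238 and 0.466). In the mean log2 CPM over the 4 times the 3 Aim2-/- mice lay above the 3 WT mice for Eomes (5.70 ± 0.14 against 4.76 ± 0.33, SD, n = 3 mice), Foxp3 (7.54 ± 0.28 against 7.04 ± 0.30) and Gata3 (7.37 ± 0.11 against 7.03 ± 0.12). The two-sided exact permutation test gave p = 0.1 for each of them, the smallest value that 3 against 3 mice allow. The mice of the genotypes overlapped for the other members. How many of all genes stand apart in this way was not counted.

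Several factors varied together within a group. Deviations of log2 CPM from the group mean correlated over the 24 libraries with Pearson's r of 0.92 for Ahr and Prdm1, 0.91 for Maf and Prdm1, 0.87 for Foxp3 and Rora, and 0.84 for Maf and Ahr. Tbx21 stood outside, with r between -0.30 (Rora) and 0.30 (Gata3). These values are a description, since the 4 libraries of a mouse share its cells. The mouse labelled WT 1 and Aim2-/- mouse 1 were the highest of their genotype in Maf and Prdm1 averaged over time. At 0 h both also held the most plasma cell markers of their genotype. These summed to 170 CPM against 57.3 and 43 CPM in WT, and to 771 CPM against 390 and 723 CPM in Aim2-/- mice. Their part in the levels of Maf and Prdm1 was not tested, and the fit with marker scores had no plasma cell term.

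**Figure D5:**
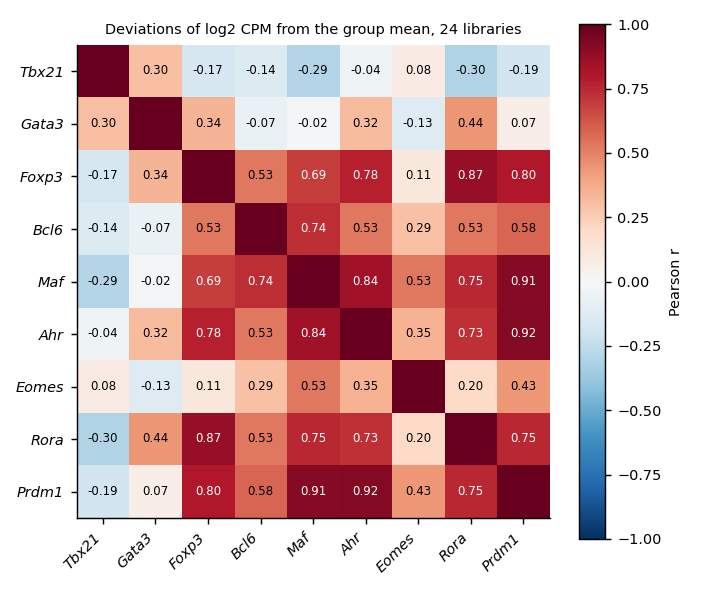
Pearson's r between each pair of factors over 24 libraries, after the group mean was taken off log2 CPM, from blue (negative) to red (positive). Foxp3, Maf, Ahr, Rora and Prdm1 form a block with r from 0.69 to 0.92, and the row of Tbx21 lies between -0.30 and 0.30.

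The genes whose log2 CPM ran closest to each factor over the 24 libraries were sought among 9542 genes with a mean of at least 5 CPM. For Tbx21 these were Tbkbp1 (r = 0.982), Irf8 (0.966) and Noc4l (0.963). Tbkbp1 lies near Tbx21 on chromosome 11 in GRCm38, on the same strand with 20.8 kb between the genes, in which 1 other annotated gene (Gm11572) starts. Bcl6 ran with Ptpn22 (0.992), Sgpl1 (0.990) and Rhof (0.982), Rora with Il18r1 (0.990), Nt5e (0.989) and Abcb1a (0.987), and Maf with Ikzf2 (0.980), Spock2 (0.980) and Cxcr3 (0.975). For Foxp3 they were Tmem106a (0.971), Cxcl10 (0.969) and Usp11 (0.952), for Ahr Runx2 (0.955), Itgb8 (0.955) and Myo1e (0.954), and for Prdm1 Ttc39c (0.955), Tox2 (0.953) and Myo1f (0.953). Eomes ran with Tigit (0.906) and Ret (0.906), among others, and Gata3 with Serpina3f (0.892), Nuak2 (0.877) and Slc2a6 (0.859). The 24 libraries hold 4 time points that all genes share, so these values are a description without a test.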

How the data were processed

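RNA of splenic CD4+ T cells from 6 mice, each at 4 times, was sequenced as 24 libraries with a stranded mRNA kit. Reads were aligned by the authors with STAR to GRCm38, and the deposited values are raw counts per Ensembl gene (54446 identifiers, 54409 of them matched by identifier in the GENCODE annotation of GRCm38). Whether counting used the strand is not given in the sources used here, and the submitters' processing notes also name DESeq2 and edgeR. Totals ran from 19715161 to 21627018 counts, so that 3 counts, the floor used for a gene at 0, were worth 0.129 to 0.155 CPM. Such limits cover counting error only.

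Genes were filtered with filterByExpr (minimum count 10), which left 15325. They were tested with edgeR 4.0.16 in R 4.3.3 (TMM, quasi-likelihood F test, a mean per group over all 24 libraries, two-sided, Benjamini-Hochberg adjustment, called under 0.05). Contrasts were 5 of the 6 pairs of times within each genotype (24 h against 3 h is not reported here), the genotypes at each time and the differences of responses. Mice were also summed over their libraries, and mouse means were compared by an exact permutation test. CPM is on TMM-scaled totals, and log2 CPM has a prior count of 2. The code was tested on simulated data. Alternatives were DESeq2 1.42.0, limma-voom (limma 3.58.1), RLE size factors, library totals, no filter, the compared groups alone, marker scores as terms, the mouse as a block, and leaving out each library or mouse.

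Mouse numbers come from the labels, which tie the 4 libraries of a mouse together. Deviations from group means correlated at 0.139 to 0.567 in the 36 pairs of libraries of the same mouse and at -0.432 to 0.0742 in 72 pairs of different mice of a genotype.

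The members, lists and tests were chosen with earlier results of these data known. Named were the members, Aim2, the 3 genes most like each member in log2 CPM (mean at least 5 CPM), genes among the 3 largest called rises and falls of each list in WT cells at 24 h, and the genes of a list called between the genotypes. Some genes that this rule names are not reported here. Promoter sequences are from RefSeq (GRCm38.p6).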

Additional observations from a re-analysis of the deposited data

Results flagged for a closer look

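The log2 change of Eomes from 0 to 6 h had opposite signs in the genotypes, but neither change was called by edgeR over all mice. It was 0.38 ± 0.27 in WT (adjusted p = 0.264) and -0.40 ± 0.27 in Aim2-/- cells (0.228). By mouse it was 0.16, 0.32 and 0.84 in WT mice 1, 3 and 4. In Aim2-/- mice 1, 2 and 4 it was -0.36, -0.21 and -0.63. The members were searched for changes with WT up and Aim2-/- down, or the reverse. The agreement of the mice is therefore how Eomes was picked and no test. How many of all genes meet this rule is not given here. The difference of the responses was -0.77 ± 0.38 by edgeR (adjusted p = 0.395), which did not pass the threshold, and -0.96 ± 0.32 without the mouse labelled WT 1 (0.267). With 3 mice a group, single libraries that stand apart were not tested.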

How the results depend on the processing

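Members called, of 9, are given for each comparison where another setting moved the count by over 1.5 times. By the same rule the count of all genes called moved in 34 cases under other settings and stayed in 91. The shares of all genes under each setting are not given here. For WT 6 h against 3 h (1 called) RLE size factors, no filter and DESeq2 gave 2, library totals 0, and the mouse as a block 4. For Aim2-/- 3 h against 0 h (4) the block gave 8. Between the genotypes at 0 h (3) the compared groups alone gave 1. At 3 h (0) no filter, DESeq2, limma-voom and limma-voom with the mouse as a block each gave 1. At 6 h (1) RLE size factors, the compared groups alone and marker scores gave 0, and DESeq2, limma-voom and limma-voom with the block gave 2. At 24 h (0) no filter gave 4 and DESeq2 2. For the differences of responses (0 each) no filter gave 1, 1 and 2 at 3, 6 and 24 h, DESeq2 gave 1 and 2 at 6 and 24 h, and the mouse as a block 1 and 3. For summed mice (0) no filter gave 1.

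Leaving out a library or mouse gave 3 to 4, 5 to 6 and 9 to 9 members called in WT cells at 3, 6 and 24 h, 0 to 2 from 3 to 6 h and 7 to 8 from 6 to 24 h. In Aim2-/- cells it gave 2 to 4, 5 to 6 and 6 to 9, then 0 to 2 and 6 to 8. Between the genotypes it gave 0 to 4, 0 to 1, 0 to 1 and 0 to 2 at 0, 3, 6 and 24 h, 0 to 0 for each difference of responses and 0 to 2 for summed mice. The block changed no other call of a member than those given in the report.

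Of the single values of members, 784 kept direction and side of the threshold under other settings, 45 gained a call and 19 lost one. On leaving out a library or mouse 1147 kept them, 14 gained, 86 lost and 1 changed sign. That was the difference of Foxp3 responses at 24 h, at -0.04 without the Aim2-/- 24 h library of mouse 1 (range -0.04 to 0.65 over the left-out libraries and mice). It was not called. The cause was not tested. Depth limits most at 24 h, when the WT library of mouse 3 held 64 counts of Rora, 69 of Prdm1 and 101 of Ahr. Single values of list genes and Aim2 were followed over all comparisons in the same way. Under other settings 2845 kept direction and side of the threshold, 125 lost a call and 17 gained one. On leaving out a library or mouse 3276 kept them, 620 lost a call and 13 gained one.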
